A study of Homo sapiens with 4 samples.

Results

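Glutathione synthesis and conjugation genes were examined for MTF-1 binding in MDA-MB-231 cells, an established human breast cancer cell line. The group holds 10 genes, chosen by their function, of 19970 protein-coding genes that GENCODE 44 places on chromosomes 1 to 22 and X. They are SLC7A11, GCLC, GCLM, GSS, GSR, GPX1, GPX2, GPX4, GSTP1 and GLRX, and they lie on 10 different chromosomes. For each gene, peaks were collected from a window made of the annotated gene and 20 kb on either side.

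Glutathione is the main small thiol of the cell. It binds cadmium through its sulfur and supplies the electrons with which peroxides are reduced, so its synthesis and recycling are part of the defense against metals. MTF-1 is the zinc finger factor that activates metallothionein genes through metal response elements, and the mouse gene for the catalytic subunit of glutamate-cysteine ligase has been described as an MTF-1 target. Many genes of this pathway are also known targets of NRF2, which binds antioxidant response elements.

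MTF-1 was profiled by CUT&RUN, in which an antibody tethers a nuclease to the protein and the DNA released around it is sequenced. There were 2 libraries from control cells, which received no cadmium and were passaged in normal medium, and 2 libraries from cells passaged in cadmium sulfate and kept at 10 µM. Both groups are cultures of the same line, and the cadmium-resistant cells are a selected population. The authors merged the libraries of each condition before they called peaks, so each condition is represented by 1 peak list that gives positions only. No peak has a height or a read count, the depth of the libraries is unknown, and no replicate spread could be measured. In a shorter peak, fewer reads and less binding cannot be told apart. The comparisons are therefore descriptions of 2 lists, without tests. The main counts are set beside the same counts over all protein-coding genes or over the whole lists. The control list held 69299 peaks over 130.4 Mb and the cadmium list 60130 peaks over 90.9 Mb, so that 0.697 times as much sequence was covered in cadmium. Peaks were built from bins of 200 bp, and a difference of a single bin is the smallest that can be seen.

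As a check of the cell line label, CDKN2A, which is known to be deleted in MDA-MB-231, had no peak in its window in either list. The mesenchymal genes VIM, CD44, ZEB1 and AXL had a start-site peak in both lists. So did the luminal genes FOXA1 and ESRP1, while ESR1 had a start-site peak in the control list only and GATA3 in neither. A peak at a start is not a measure of expression, and these marker genes did not separate the mesenchymal from the luminal type.

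MTF-1 peaks were found at the starts of most of the 10 genes, and in both conditions. A start-site peak, which shares at least 1 base with the 1 kb on either side of the canonical transcription start site (TSS), was present at 9 of the 10 genes in control cells and at the same 9 genes in cadmium-treated cells. In each of these cases the peak covered the TSS itself. GPX2 was the exception in both lists. Over all protein-coding genes, 68.8% had a start-site peak in the control list, 67.1% in the cadmium list and 65.8% in both. The state of a start site thus did not differ between conditions for any of the 10 genes, and over all protein-coding genes such differences were also infrequent, with 3.09% bound at the start in control only and 1.32% in cadmium only.

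What differed was the sequence covered around the starts. In total the 10 windows, 781.7 kb of sequence, held 54 control peaks covering 145850 bp and 46 cadmium peaks covering 88412 bp, a ratio of 0.606. Summed over the windows of all protein-coding genes the ratio was 0.737. Covered sequence was shorter in cadmium in 9 of the 10 windows, all except GCLM, while 73.4% of protein-coding windows with any peak were shorter in cadmium. Of genes with a start-site peak in both lists, 76.1% had a window with less covered sequence in cadmium, and of the 9 such genes here 8 did. The median ratio was 0.647 over the 10 genes and 0.750 over all protein-coding windows with a control peak. The direction of the group is thus that of most genes in these lists.

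**Figure D1:**
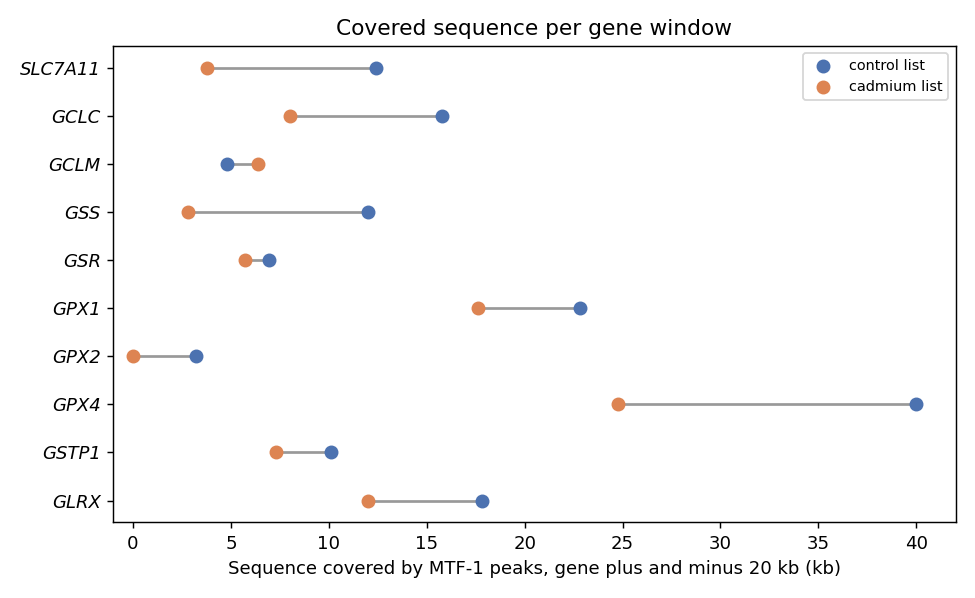
Sequence covered by MTF-1 peaks (kb, horizontal axis) in the window of each gene, with blue points for the control list and orange points for the cadmium list. Only GCLM has its cadmium point to the right of its control point, and GPX4 has the highest point of both lists, at 40007 and 24785 bp.

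The covered sequence was then divided by part of the window. Within 1 kb of the starts, 16657 bp were covered in control and 15899 bp in cadmium, a ratio of 0.954. This part is only 2001 bp long for each gene and narrower than most start-site peaks, so that it can be full in both lists while the peak differs in width. Of the 6 genes with equal values, GCLC, GPX1, GPX4 and GSTP1 were covered in full in both lists, GPX2 was at 0 in both, and SLC7A11 alone lay between, at 1451 bp. In the 20 kb upstream of the genes, 52533 bp were covered in control and 30115 bp in cadmium (0.573). The gene bodies had 41717 and 27723 bp (0.665) and the 20 kb downstream 51600 and 30574 bp (0.593). Over all genes with a start-site peak in both lists, the corresponding ratios were 0.947 near the start, 0.767 upstream, 0.715 in the gene body and 0.765 downstream. The flanks of the glutathione genes were thus below the ratio of these genes.

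**Figure D2:**
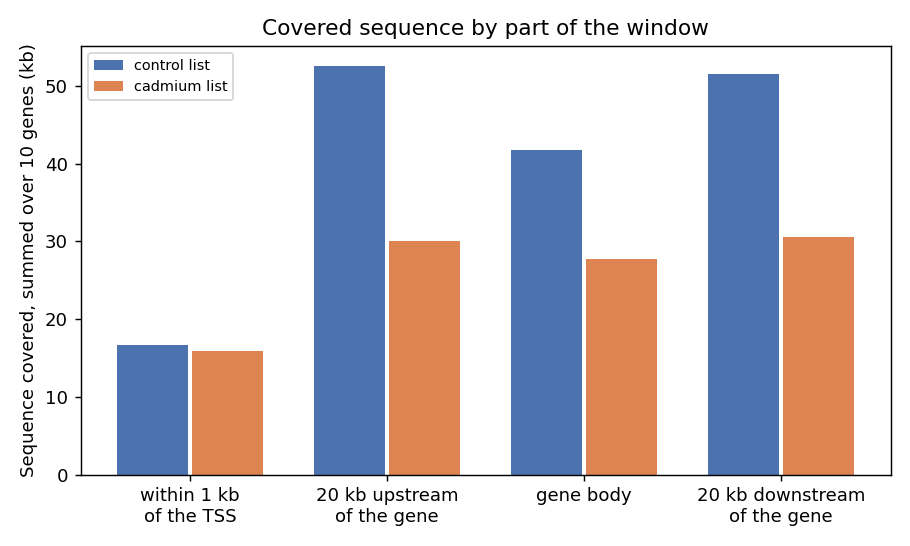
Sequence covered by MTF-1 peaks summed over the 10 genes (kb, bars starting at 0), by part of the window, for the control list in blue and the cadmium list in orange. The bars within 1 kb of the TSS stand at 16657 and 15899 bp, of at most 2001 bp per gene, and the cadmium bars of the flanks are lower than the control bars; the 1 kb part overlaps the gene body and upstream parts.

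The share of control-only peaks in these windows was close to that over all protein-coding windows, and with flanks of 20 kb cadmium-only peaks were few. A partner in the cadmium list was missing for 13 of the 54 control peaks (24.1%), and a partner in the control list for 1 of the 46 cadmium peaks (2.17%). In the windows of all protein-coding genes, 25.1% of control peaks and 13.6% of cadmium peaks were unique to their list. Of the 10 windows, 7 held a control-only peak and 1 held a cadmium-only peak, compared with 46.1% and 31.2% of protein-coding windows. The 13 control-only peaks were 399 to 3199 bp wide with a median of 799 bp, and their centers lay 4947 to 84199 bp from the TSS. Where the lists overlapped they formed 39 shared sites, of which 29 were longer in the control list, 9 in the cadmium list and 1 was equal. Genome-wide, 58.0% of shared sites were longer in control and 23.7% in cadmium. Of the 46 cadmium peaks, 33 lay wholly inside control peaks (71.7%), against 55.8% of the whole cadmium list.

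**Figure D3:**
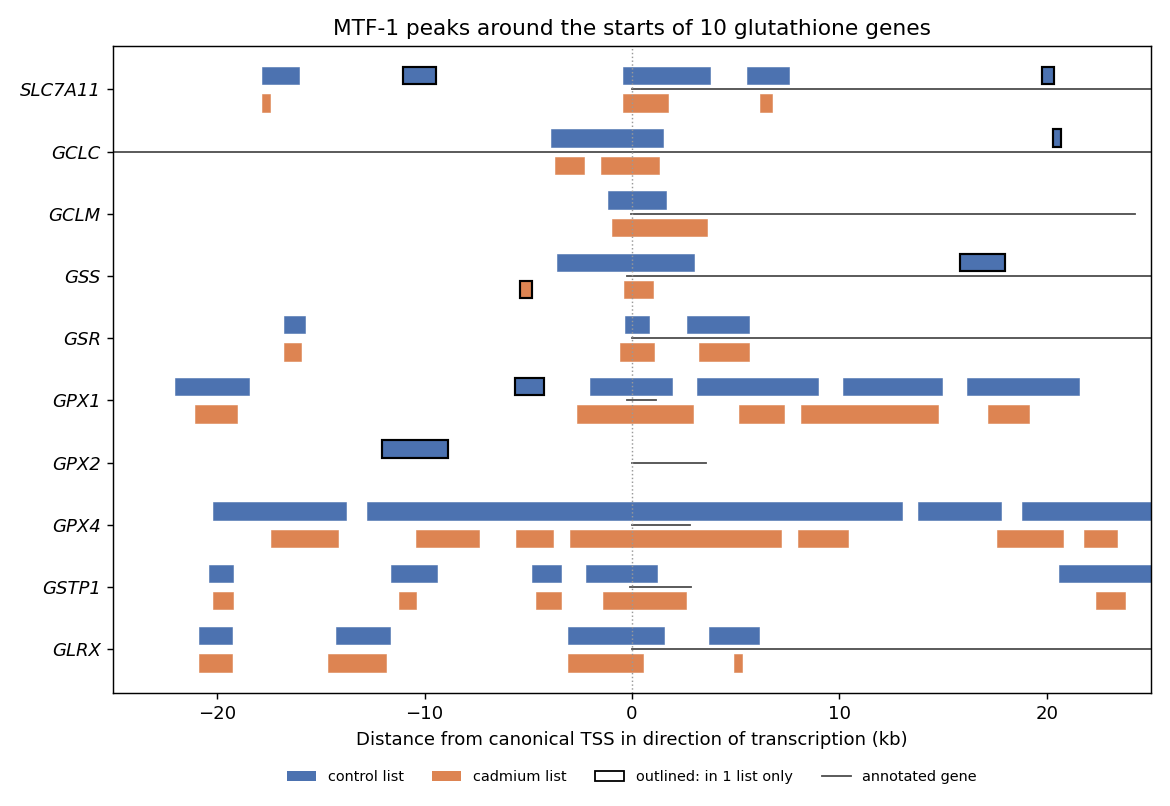
MTF-1 peaks within 25 kb of the canonical TSS of each gene (distance in kb in the direction of transcription, TSS at 0), with control peaks in blue above the gene line and cadmium peaks in orange below it; black outlines mark peaks found in 1 list only. Both lists cover the TSS of 9 genes, GPX2 has only the outlined control peak upstream, and the only outlined cadmium peak lies upstream of GSS. Windows of long genes continue beyond the drawn range.

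Cystine uptake comes first in the pathway. SLC7A11 encodes the transporter subunit that brings cystine into the cell in exchange for glutamate, and cystine supplies the cysteine of glutathione. The gene (ENSG00000151012.13) lies on chromosome 4 from 138164097 to 138242349 on the minus strand. Its window held 9 control peaks over 12391 bp and 5 cadmium peaks over 3795 bp, a ratio of 0.306, and 7.32% of protein-coding windows with a control peak had a ratio as low or lower. The peak at the start ran from 138238601 to 138242799 in control, 4199 bp, and from 138240601 to 138242799 in cadmium, 2199 bp. Both ended at the same upstream edge, 450 bp before the TSS, and the difference lay inside the gene, where the peak reached 3748 bp downstream in control and 1748 bp in cadmium. Each of the other shared sites was also narrower in cadmium. A site centered 6549 bp into the gene measured 1999 bp in control and 599 bp in cadmium, and a site centered 16951 bp upstream in control measured 1799 and 399 bp.

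SLC7A11 also held 4 of the 13 control-only peaks, as many as GCLC. Introns contained those from 138199401 to 138199999, from 138202601 to 138202999 and from 138222001 to 138222599, and the upstream flank that from 138251801 to 138253399. All 4 lay outside the start region, 10251 to 42649 bp from the TSS. The central 200 bases of a pair of the intronic peaks are printed because they hold a match to the antioxidant response element core, TGACNNNGC read on either strand, which is in capitals. The element is the type bound by NRF2, and within 500 bp around the center it was matched in 3 of the 13 control-only peaks, against 18.4% of control-only peaks genome-wide.
SLC7A11 control-only intronic peak, center, chr4:138199601-138199800, strand +: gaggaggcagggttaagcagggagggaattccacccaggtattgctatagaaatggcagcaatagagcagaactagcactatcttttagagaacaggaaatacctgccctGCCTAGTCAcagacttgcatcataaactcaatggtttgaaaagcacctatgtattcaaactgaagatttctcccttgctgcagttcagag
SLC7A11 control-only intronic peak nearer the start, center, chr4:138222201-138222400, strand +: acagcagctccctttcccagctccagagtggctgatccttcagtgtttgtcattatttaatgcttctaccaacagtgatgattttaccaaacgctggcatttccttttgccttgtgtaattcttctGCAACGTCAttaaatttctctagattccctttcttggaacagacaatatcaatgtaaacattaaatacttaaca

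The first and rate-limiting step of synthesis joins glutamate to cysteine. It is carried out by glutamate-cysteine ligase, whose catalytic subunit is encoded by GCLC and whose modifier subunit, which raises the activity of the enzyme, by GCLM. The lists differed in opposite directions at these partners. GCLC (ENSG00000001084.13, chromosome 6, 53497341 to 53616970, minus strand) had 15791 bp covered in control and 7994 bp in cadmium, a ratio of 0.506. GCLM (ENSG00000023909.10, chromosome 1, 93885199 to 93909456, minus strand) had 4797 bp in control and 6398 bp in cadmium, a ratio of 1.33, and 91.9% of protein-coding windows with a control peak had a ratio as low or lower.

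At GCLC, the control list had a single peak of 5399 bp over the start, from 53543601 to 53548999. The cadmium list had a peak of 2799 bp over the TSS, from 53543801 to 53546599, and a separate peak of 1399 bp upstream of it, from 53547401 to 53548799, over another annotated start of the gene. The 2 cadmium peaks both lay inside the control peak and covered 77.8% of it. GENCODE 44 gives 14 start positions for GCLC, some of them far upstream of the canonical TSS. A peak over such a start, centered 71299 bp upstream, was also in both lists, with 1999 bp in control and 1599 bp in cadmium. It overlaps the starts of LINC01564 and of the long noncoding RNA gene ENSG00000231683 as well, so its gene cannot be told from position. The 4 control-only peaks of the window were 399 to 2999 bp wide, and no cadmium-only peak was found.

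At GCLM, the start-site peak was the wider in cadmium. It ran from 93907801 to 93910599 in control, 2799 bp, and from 93905801 to 93910399 in cadmium, 4599 bp. Upstream of the TSS it reached 1169 bp in control and 969 bp in cadmium, and downstream 1629 bp in control and 3629 bp in cadmium. The added sequence was thus inside the gene. The width ratio was 1.64, and 95.1% of protein-coding genes with a start-site peak in both lists had a ratio as low or lower. With the flanks set to 5 kb the window held 2799 bp in control and 4600 bp in cadmium, and with 50 kb 11195 and 13195 bp. The direction was the same at each size, but these windows are nested and all contain the start-site peak. Each 20 kb flank by itself was covered less in cadmium, with 1143 and 943 bp upstream and 1998 and 1799 bp downstream. The upstream bases belong to the start-site peak itself, and each of these differences is about a single bin.

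The promoters of the ligase genes are printed as the 250 bases before the RefSeq start on GRCh38.p14, 5′ to 3′ on the strand of the gene, to show the elements under the start-site peaks. Capitals mark matches, on either strand, to the metal response element core TGCACNC or TGCGCNC, to the antioxidant response element core TGACNNNGC and to the AP-1 site TGACTCA or TGAGTCA, whose first letters overlap the antioxidant core where both occur.
GCLC promoter, chr6:53545102-53545351, strand -: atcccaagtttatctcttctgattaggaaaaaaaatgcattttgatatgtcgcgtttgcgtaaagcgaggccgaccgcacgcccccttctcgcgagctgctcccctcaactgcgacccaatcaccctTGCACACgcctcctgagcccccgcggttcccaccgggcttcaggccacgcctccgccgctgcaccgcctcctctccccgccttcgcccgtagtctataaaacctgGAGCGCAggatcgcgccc
GCLM promoter, chr1:93909431-93909680, strand -: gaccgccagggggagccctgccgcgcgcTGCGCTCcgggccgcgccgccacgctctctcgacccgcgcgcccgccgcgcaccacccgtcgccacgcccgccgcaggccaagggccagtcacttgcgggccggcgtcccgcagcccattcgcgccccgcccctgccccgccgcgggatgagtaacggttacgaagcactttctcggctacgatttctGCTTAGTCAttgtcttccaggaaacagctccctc

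Each of these promoters held the metal response element core, GCLC at 2 places, from 123 to 117 and from 18 to 12 bases before the start, and GCLM at 1 place, from 222 to 216 bases before it. GCLM also held the antioxidant core, read on the opposite strand as GCTTAGTCA, from 34 to 26 bases before the start, and GCLC held none in this stretch. A match is a description of the letters and not a site of binding. Promoter sequences of this kind were found for 7 of the 10 genes in the RefSeq table, and those of SLC7A11, GSS and GSR were not used here. Over 250 bases before to 50 after the start, the metal response element core was in 4 of the 7 promoters and in 33.8% of 22132 RefSeq promoters of protein-coding genes. The antioxidant core was in 3 of the 7 and in 13.8%, and the AP-1 site in 1 of the 7 and in 4.01%.

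The second step adds glycine and is catalyzed by glutathione synthetase, encoded by GSS (ENSG00000100983.12, chromosome 20, 34928432 to 34956027, minus strand). GSS had the lowest ratio of start-site peak width among the 10 genes, while in bp the difference at GPX4 was larger. The peak measured 6599 bp in control, from 34952801 to 34959399, and 1399 bp in cadmium, from 34954801 to 34956199. It reached 3593 bp upstream and 3005 bp downstream of the TSS in control, and 393 bp and 1005 bp in cadmium. The width ratio was 0.212, and 1.15% of protein-coding genes with a start-site peak in both lists had a ratio as low or lower. The start is shared with MYH7B, a myosin heavy chain gene that begins beside it and is read in the opposite direction, so the peak cannot be assigned to GSS alone.

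The covered sequence in the GSS window was 11997 bp in control and 2797 bp in cadmium, a ratio of 0.233. An intronic control peak of 2199 bp, from 34937801 to 34939999, had no counterpart in cadmium. The only cadmium-only peak of the 10 windows also lay here. It was 599 bp wide, from 34960601 to 34961199, with its center 5094 bp upstream of the GSS start and inside the annotated span of MYH7B. Its central 200 bases are printed because no other site of the group was found in cadmium alone. They hold no match to the 3 motifs, and none was found in the whole peak.
GSS upstream cadmium-only peak, center, chr20:34960801-34961000, strand +: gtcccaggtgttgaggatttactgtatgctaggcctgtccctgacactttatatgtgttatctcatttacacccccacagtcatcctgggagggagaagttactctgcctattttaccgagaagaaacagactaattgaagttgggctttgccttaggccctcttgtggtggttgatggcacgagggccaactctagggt

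GSR encodes glutathione reductase, which returns oxidized glutathione to its reduced form with electrons from NADPH. The gene (ENSG00000104687.14) lies on chromosome 8 from 30678066 to 30727846 on the minus strand. Its window held 5 control peaks over 6930 bp and 4 cadmium peaks over 5731 bp, a ratio of 0.827. The start-site peak was among the narrow ones, with 1199 bp in control, from 30727001 to 30728199, and 1599 bp in cadmium, from 30726801 to 30728399. It was extended by a bin at each end. An intronic site near the start was 2999 bp in control and 2399 bp in cadmium, and an intronic control peak of 799 bp from 30698201 to 30698999 was absent from the cadmium list. At GSR the lists had 72.7% of their combined covered sequence in common, the highest share among the 10 genes, where the median was 51.3% and that of all protein-coding windows with a peak 54.7%.

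The glutathione peroxidases reduce peroxides at the expense of glutathione. GPX1 encodes the cytosolic enzyme found in most cells, GPX2 an enzyme known chiefly from epithelia of the gut, and GPX4 the enzyme that reduces lipid peroxides in membranes and protects cells from ferroptosis. The 3 genes showed the extremes of the group. In the control list, 93.5% of the GPX4 window, 55.1% of the GPX1 window and 7.34% of the GPX2 window were covered, and the median over all protein-coding windows was 7.07%. In the cadmium list the shares were 57.9%, 42.5% and none, with a median of 5.17% over all protein-coding windows.

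GPX4 (ENSG00000167468.20, chromosome 19, 1103982 to 1106791, plus strand) lay in a broad domain. The control peak over its start ran from 1091201 to 1116999, 25799 bp, and also covered the start of POLR2E, a subunit of RNA polymerase II. Only 26 of the 69299 control peaks were as wide or wider, this peak included. In cadmium the same stretch held 4 peaks with 17396 bp in all, and the peak over the GPX4 start ran from 1101001 to 1111199, 10199 bp. The gene itself, 2810 bp long, was covered entirely in both lists. The upstream flank had 18999 covered bases in control and 10978 in cadmium, and the downstream flank 18198 and 10997. GPX4 had no control-only peak and a ratio of 0.620, and the broad control domain thus faced several separate peaks in cadmium. Since this window held the most covered sequence, the ratio of the group was recomputed without it, a choice made after seeing the data, and was 0.601.

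At GPX1 (ENSG00000233276.9, chromosome 3, 49357174 to 49358605, minus strand), the start-site peak was wider in cadmium. It measured 3999 bp in control, from 49356401 to 49360399, and 5599 bp in cadmium, from 49355401 to 49360999, and the control peak lay wholly inside the cadmium peak. The short gene was covered from end to end in both lists. Around it the covered sequence was less in cadmium, with 22827 bp in control and 17601 bp in cadmium over the window, a ratio of 0.771. A control-only peak of 1399 bp, from 49362601 to 49363999, lay 4947 bp upstream, within the annotated span of RHOA, a small GTPase gene.

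GPX2 (ENSG00000176153.13, chromosome 14, 64939152 to 64942746, minus strand) had no peak at its start or within the gene. The nearest edge of a control peak was 8856 bp from the TSS and that of a cadmium peak 27746 bp. The single peak of its window was control-only, 3199 bp wide, from 64951601 to 64954799, and lay inside RAB15, a gene of a vesicle transport GTPase, and the CHURC1-FNTB readthrough gene. Windows without any cadmium peak made up 11.5% of protein-coding genes. The center of this peak is printed because it holds the AP-1 site, in capitals. Within 500 bp around the center, the metal response element core was in 4 of the 13 control-only peaks of the group and in 28.8% genome-wide. In the same stretch, AP-1 sites were found in 6 of these 13 peaks and in 24.5% of control-only peaks genome-wide. Genome-wide the share was also 24.5% in shared peaks of the control list, and it was 32.6% in cadmium-only peaks.
GPX2 upstream control-only peak, center, chr14:64953101-64953300, strand +: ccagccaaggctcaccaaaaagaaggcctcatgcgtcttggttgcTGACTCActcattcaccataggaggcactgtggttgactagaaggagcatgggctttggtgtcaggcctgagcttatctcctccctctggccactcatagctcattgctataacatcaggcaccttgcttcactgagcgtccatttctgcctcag

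Of the peroxidase promoters, GPX1 and GPX2 are shown for contrast, the first under a peak in both lists and the second under none. Capitals mark the same motifs as before.
GPX1 promoter, chr3:49358354-49358603, strand -: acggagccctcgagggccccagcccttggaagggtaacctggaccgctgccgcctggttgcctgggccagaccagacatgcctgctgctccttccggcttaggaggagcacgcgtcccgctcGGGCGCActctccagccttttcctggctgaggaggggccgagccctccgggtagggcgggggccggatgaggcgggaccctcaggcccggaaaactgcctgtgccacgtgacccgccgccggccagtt
GPX2 promoter, chr14:64942746-64942995, strand -: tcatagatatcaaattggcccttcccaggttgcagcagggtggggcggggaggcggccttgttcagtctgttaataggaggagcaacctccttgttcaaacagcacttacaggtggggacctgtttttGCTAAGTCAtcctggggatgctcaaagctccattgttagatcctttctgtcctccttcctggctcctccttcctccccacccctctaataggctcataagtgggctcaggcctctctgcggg

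GPX1 held the metal response element core from 128 to 122 bases before the start, and GPX2 the antioxidant core from 122 to 114 bases before it. The GPX2 promoter was poorer in CpG, with 4 CpG from 250 bases before to 50 after the start, against 23 in GPX1 and 39 in GPX4. The GLRX promoter, under a start-site peak in both lists, was similarly poor, with 5 CpG. The GPX4 promoter held none of the 3 motifs.

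Conjugation of glutathione to electrophiles is the work of the glutathione S-transferases, of which GSTP1 encodes the pi class enzyme. GSTP1 (ENSG00000084207.18, chromosome 11, 67583742 to 67586656, plus strand) had 5 peaks in each list and each had a partner in the other. They covered 10111 bp in control and 7311 bp in cadmium, a ratio of 0.723. The start-site peak lay further into the gene in cadmium. It ran from 67581601 to 67584999 in control, 3399 bp, and from 67582401 to 67586399 in cadmium, 3999 bp. Upstream of the TSS it covered 2211 bp in control and 1411 bp in cadmium, and downstream 1187 bp in control and 2587 bp in cadmium. Of the gene body, 2915 bp long, 1258 bp were covered in control and 2658 bp in cadmium. The other 4 sites of the window were all narrower in cadmium, among them a site centered 10512 bp upstream in control with 2199 bp in control and 799 bp in cadmium. With flanks of 5 kb, where the start-site peak weighs more, GSTP1 had 4798 bp in control and 5198 bp in cadmium, so the direction at this gene turned with the size of the window.

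The GSTP1 promoter is printed because it was the only one of the 7 with matches to all 3 motifs, marked in capitals.
GSTP1 promoter, chr11:67583562-67583811, strand +: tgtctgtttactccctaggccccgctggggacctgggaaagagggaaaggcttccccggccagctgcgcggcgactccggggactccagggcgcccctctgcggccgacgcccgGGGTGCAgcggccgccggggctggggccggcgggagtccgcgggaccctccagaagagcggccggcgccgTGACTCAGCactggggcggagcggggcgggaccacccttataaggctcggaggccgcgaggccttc

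The AP-1 site TGACTCA and the antioxidant core TGACTCAGC begin at the same base, 66 bases before the start, and are therefore not separate elements. The metal response element core lay from 136 to 130 bases before the start. The start-site peaks of both lists cover the whole stretch.

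GLRX encodes glutaredoxin, which uses glutathione to remove glutathione from the thiols of proteins. The gene (ENSG00000173221.14) is annotated on chromosome 5 from 95751319 to 95822726 on the minus strand. Its window had 9 peaks in each list, and none was unique. Their covered sequence was 17800 bp in control and 12000 bp in cadmium, a ratio of 0.674. Every peak of both lists from 95727801 to 95825799, the start-site peak included, also overlapped the annotated span of RHOBTB3. Several of them lay outside the canonical transcript of GLRX, and the most downstream ones lay at the RHOBTB3 start. These peaks cannot be assigned to GLRX alone. The start-site peak had the same upstream edge in both lists, 3073 bp before the TSS, and reached 1525 bp downstream in control and 525 bp in cadmium, with widths of 4599 and 3599 bp. The largest difference within the gene was at the site from 95816601 to 95818999, with 2399 bp in control and 399 bp in cadmium. A site centered 12974 bp upstream in control had 2599 bp in control and 2799 bp in cadmium, and the site at the window's upstream end had 1599 bp in both. The promoter of GLRX held none of the 3 motifs and 5 CpG.

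Considered together, the 9 start-site peaks fell into 2 directions. They were wider in cadmium at GCLM (1.64), GPX1 (1.40), GSR (1.33) and GSTP1 (1.18) and narrower at GLRX (0.783), SLC7A11 (0.524), GCLC (0.518), GPX4 (0.395) and GSS (0.212). Of protein-coding genes with a start-site peak in both lists, 61.2% were narrower and 25.8% wider in cadmium. The peak reached further into the gene in cadmium at 4 of the 9, the same 4 that were wider, against 23.3% of genes, and further upstream at 2 of the 9, against 22.9%. A shift, with more sequence downstream and less upstream, was seen at GCLM and GSTP1, 2 of the 9, against 9.99% of genes. At GCLM the upstream difference, 1169 bp in control and 969 bp in cadmium, was a single bin. The median width was 4199 bp in control and 3599 bp in cadmium for the 9 genes, and 2599 and 2199 bp for all protein-coding genes with a start-site peak. With 9 genes and a single list for each condition, whether the group differs from other genes in these shares was not tested.

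**Figure D4:**
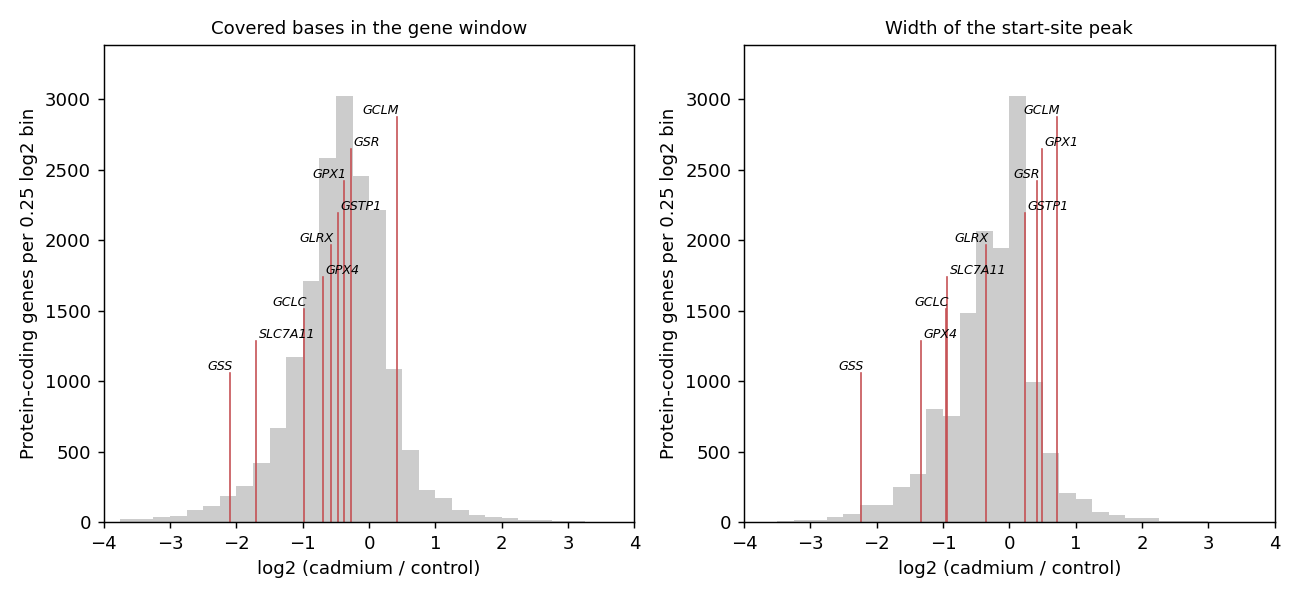
Distribution over protein-coding genes (grey bars, genes per bin of 0.25) of the log2 ratio of cadmium to control, for covered bases in the gene window on the left and the width of the start-site peak on the right, with red lines for the glutathione genes; the height of a line carries only its label. GSS is the leftmost and GCLM the rightmost of the drawn genes in both panels, and GPX2, with no cadmium peak, cannot be drawn.

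A wider list of 50 genes of glutathione use, breakdown and transport was described in the same way. Of these, 40 had a start-site peak in the control list and 42 in the cadmium list. Over all protein-coding genes the shares were 68.8% and 67.1%. It was present in both lists for 40 genes, in neither for 8 and in cadmium only for 2. The latter were GGT6, a member of the gamma-glutamyltransferase family, with a peak of 1399 bp, and GPX5, a peroxidase known from the epididymis, with a peak of 599 bp. Of the 40 start-site peaks in both lists, 27 were narrower, 8 wider and 5 equal in cadmium. Covered sequence was less in cadmium in 32 of the 47 windows with any peak, with a median ratio of 0.80. For window coverage, the 10 genes had 9 of 10 and 0.647. They and the wider list thus lay on opposite sides of the values over all protein-coding genes, 73.4% and 0.750. In the share of start-site peaks narrower in cadmium the order was reversed. It was 5 of 9 for the 10 genes and 27 of 40 for the wider list, against 61.2%. Neither difference was tested. The wider list counts each gene singly, although GSTM1 to GSTM5 all lie on chromosome 1. Each of their windows was covered more in cadmium, for example 2784 bp in control and 3984 bp in cadmium at GSTM1. None of them is among the 32 windows covered less in cadmium. Without them the share of such windows would lie above 73.4%, on the side of the 10 genes, while the median ratio would stay above 0.750.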

How the data were processed

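The authors sequenced 2 MTF-1 CUT&RUN libraries per condition, control and 10 µM cadmium. Reads were trimmed and aligned with Bowtie2 to hg38 by the authors. They joined the libraries of a condition with SAMtools 1.8 before calling peaks with Epic2, a version of SICER, at its default settings. The sources used here name no control library for peak calling. The deposited files used here are 1 peak list per condition giving the position of each peak in base pairs. The remaining column is constant and was not used.

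Positions were written 1-based. The genes, windows (20 kb flanks), canonical TSSs and start sites (1 kb) came from GENCODE 44 on GRCh38, the build of the lists. Each peak was called shared if it had at least 1 base in common with a peak of the other list. Covered bases were clipped to the window. Motifs were searched on both strands in RefSeq promoters and in 500 bp around peak centers of the hg38 sequence, read with pysam 0.24.0. Code was tested on simulated intervals. Genes named in the text are the 10 members, neighbors with a start at a described peak, genes of the wider list bound at the start in 1 list only, and the marker genes of the label check. Genes whose span overlaps a described control-only peak or cadmium-only peak, RHOA, RAB15, CHURC1-FNTB among them, were named after their values were seen. The same holds for the GSTM genes of the wider list. The members and lists were chosen with earlier results of these data known. No RNA, accessibility or signal track was used.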

Additional observations from a re-analysis of the deposited data

How the results depend on the processing

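No paired analysis was possible because each of the 2 peak lists used here was called on merged replicates, and for the same reason no library could be left out. Separate libraries were not analysed here. Of the results on the 10 genes, the 9 start-site peaks per list were found under each of the 4 other definitions, and the ratio of covered sequence, 0.606, ranged from 0.577 to 0.683 over windows of 5 and 50 kb, peaks of at least 1000 bp and peaks closest to the gene's own TSS. Counts scale with the window by construction. With 5 kb flanks there were 32 control and 26 cadmium peaks, 8 control-only peaks and 75285 and 51450 bp covered, and covered sequence was less in cadmium at 7 genes, all but GCLM, GSTP1 and GPX2, which had none in either list. With 50 kb flanks there were 86 and 79 peaks, 21 control-only and 6 cadmium-only peaks, and 268281 and 157713 bp. With peaks of at least 1000 bp, 30 cadmium peaks remained and 0 were cadmium-only, since the peak near GSS is narrower. With peaks closest to the gene's own TSS there were 30 cadmium peaks and 0 cadmium-only, since that peak is closer to MYH7B. Where 50% of a peak had to be covered to be shared, 27 control and 3 cadmium peaks were unique. For the unique peaks under these other settings no share over all protein-coding windows is given. Their place against other genes is therefore known only for the main setting. The metal response element core was in 6 of the 7 promoters over 1000 bases before to 200 after the TSS, against 74.6% of all such promoters. The lists limit what can be seen: without read counts, weak binding below the caller's threshold cannot be told from absence.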

Other observations

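The windows of the 10 genes also contain the canonical starts of 7 other protein-coding genes, and each of the 7 had a start-site peak in both lists. Over all protein-coding genes, 65.8% did. The peak at DNTTIP2, in the GCLM window, measured 1399 bp in control and 1799 bp in cadmium. At GTF2E2, which encodes a subunit of the general transcription factor TFIIE and lies downstream of GSR, the widths were 3199 and 3999 bp, and at UBXN8, on the other side of GSR, 999 and 799 bp. The peak at USP4, a ubiquitin protease gene in the GPX1 window, was 5399 bp in control and 1999 bp in cadmium. That at RHOBTB3, whose span overlaps GLRX, was 6399 and 2199 bp. MYH7B shared its peak with GSS in both lists, and POLR2E lay in the broad GPX4 domain in control and under a separate peak of 2999 bp in cadmium. The peaks at DNTTIP2 and GTF2E2 were thus wider in cadmium, and those at the other starts narrower. Of protein-coding genes with a start-site peak in both lists, 61.2% were narrower and 25.8% wider. The MYH7B peaks and the control peak at POLR2E are those already counted at GSS and GPX4.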
